A study of Saccharomyces cerevisiae with 8 samples.

Results

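Most array probes are chosen to meet 1 transcript, but the copies of a repeated gene are too alike for that, and a probe set that meets several of them reads their RNA together. Of 9275 non-control probe sets on a yeast array, 328 named 2 or more genes in the platform annotation. Leaving out 118 that name genes of ribosomal proteins, core histones, snoRNAs, the silent mating cassettes or the PAU, COS, YRF1, HXT and FLO families left 210 shared probe sets. Of these, 108 named retrotransposon genes and 102 named other genes. In every result below the probe set was measured, not any 1 of its genes. Probe sets that share genes or sequence are also not independent of each other: the 108 held 41 different gene sets and the 102 held 83.

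Budding yeast, Saccharomyces cerevisiae, was profiled in the double mutant not1-2 spt3, the single mutants spt3 and not1-2, and wild type, on 2 arrays per strain. CDC39 encodes Not1, around which the Ccr4-Not complex is built, and Spt3 belongs to the coactivator SAGA, where it acts with the TATA-binding protein. Every strain, wild type included, spent 24 h in rich medium with glucose at 30°C, was shifted at an optical density of 0.2 to 37.5°C, the restrictive temperature, and was harvested at 0.8. What kind of alleles not1-2 and spt3 are, and in which background they lie, the labels leave unsaid. They also do not state whether replicates were separate cultures, and a p-value here therefore reflects a spread between arrays that may be technical.

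Ty elements are the retrotransposons of budding yeast. They lie between long terminal repeats and carry a gag-like gene, TYA, and a pol-like gene, TYB, the second reached by a ribosomal frameshift, so that 1 element gives a short and a long annotated gene. Ty1, Ty2 and Ty4 are copia-like and Ty3 is gypsy-like, and Ty1 is the family best known for its abundant RNA. SPT genes take their name from suppressors of Ty insertions, and transcription of Ty1 is known to need SPT3. The comparison of strains without and with SPT3, in either state of NOT1, asks about that dependence here.

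Each deposited signal was scaled to a common array median and set to at least 1.72, the 10th percentile of all values, called the floor below. The labels held for SPT3: its probe set was at the floor on both arrays of not1-2 spt3 and both of spt3, against 29.9 and 22.8 in not1-2 and 25.3 and 15.5 in wild type. Of 9 probe sets listed for CDC39, 3 passed the filter described below, and in not1-2 against wild type they differed by -1.19, -0.43 and -0.06, with 0 passing in limma with the block. The last of these gave 25.8 and 58.2 in not1-2 spt3, 55.3 and 34.7 in spt3, 14.2 and 27.3 in not1-2 and 18.0 and 23.3 in wild type, and what the allele does to this RNA is not known here. SPT3 status coincided with TRP1, whose probe set gave 51.8 and 36.0 in not1-2 spt3 and 44.8 and 56.2 in spt3, and was at the floor in not1-2 and wild type, so the 2 cannot be told apart. Wild type also differed from the 3 mutants in mating-type genes: MFA2, an a-factor gene, gave between 7.44 and 18.0 in the mutants and 4972 and 1448 in wild type. MF(ALPHA)1, an alpha-factor gene, gave between 534 and 1617 in the mutants and 14.9 and 17.1 in wild type. The 8 probe sets of a-specific genes differed from wild type by -2.28 or lower in each mutant. The 4 of alpha-specific genes differed by 1.03 or more. Comparisons with wild type cannot be told apart from this difference, and the comparison of both spt3 strains with both SPT3 strains includes wild type. RNA integrity, read as the ratio of the 3' to the 5' control probe set of ACT1, separated the replicates: with number 1 it was 12.2 in not1-2 spt3, 5.83 in spt3, 36.8 in not1-2 and 199.1 in wild type, and with number 2 it stayed between 1.79 and 2.10.

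The 108 retrotransposon probe sets named 67 genes. By family, 30 named Ty1 genes, 28 named genes of both Ty1 and Ty2, 11 Ty2, 8 Ty3 and 31 Ty4. They named between 2 and 20 genes each, with a median of 7. All but 7 of them carried the suffix _s_at or _f_at, which Affymetrix uses for probes that match several transcripts or a sequence family: 101 of 108, against 63 of the 102 other shared probe sets and 1240 of all 9275. Genes of other kinds were also named, PDR3 by 1 probe set, ASF1 by 1, and TYW1, YER138W-A and YOR192C-C together by 2. Family names are background knowledge, since the annotation used here gives the genes without them. A filter on low values, a strain mean above 6.99 in at least 1 strain, was passed by 93 of the 108. The other 15 were 9 of Ty4, 4 of Ty3, 1 of Ty2 and 1 of Ty1, and they stay in every count and median over 108. Of the 93, 7 had passed through the SPT3 strains alone. For these 7 a difference was built into their selection, also in counts, tests and medians over the probe sets kept.

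Retrotransposon signal was lower where SPT3 was lost, in both NOT1 states. Over the 108 probe sets the median difference of both spt3 strains from both SPT3 strains was -0.68 on the log2 scale, against -0.01 over all 9275 probe sets, and 101 of the 108 lay lower, 4 higher and 3 at the same value. The median was -0.51 within the replicate 1 arrays and -0.66 within the replicate 2 arrays, where the ACT1 ratios of the 4 strains lay between 1.79 and 2.10. The other shared probe sets had a median of -0.09. Over the 93 that passed the filter the median was -0.71, against 0.01 over all 7509 probe sets kept, and leaving out 1 array at a time moved it between -0.84 and -0.58.

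The median signal of the 108 probe sets was 108 and 75.1 on the arrays of not1-2 spt3 and 79.9 and 104 on those of spt3, against 214 and 234 in not1-2 and 175 and 176 in wild type. All 4 medians of the spt3 strains lay under all 4 of the SPT3 strains. For the Ty1 probe sets the medians were 229 and 293 in not1-2 spt3, 212 and 332 in spt3, 339.6 and 576 in not1-2 and 331 and 498 in wild type, where the groups overlapped because the replicate 2 arrays were the brighter ones in each strain. For Ty2 they were 24.4 and 51.6 in not1-2 spt3, 23.8 and 44.3 in spt3, 44.2 and 177 in not1-2 and 71.7 and 127 in wild type. For the probe sets of Ty1 and Ty2 together they were 541 and 347 in not1-2 spt3, 560.1 and 408 in spt3, 780.1 and 643 in not1-2 and 617 and 509 in wild type. For Ty4 they were 18.7 and 11.9 in not1-2 spt3, 11.7 and 16.0 in spt3, 28.1 and 27.9 in not1-2 and 23.4 and 25.2 in wild type. Within each replicate number, each of these family medians was lower in both spt3 strains than in not1-2 and wild type.

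Loss of SPT3 could be compared in both NOT1 states on different arrays. In spt3 against wild type the median over the 108 was -0.52, with 92 lower and 11 higher, against a median of -0.06 over all probe sets. In not1-2 spt3 against not1-2 it was -0.80, with 99 lower and 5 higher, against 0.04. Each state holds 2 same-numbered pairs, 4 pairs of different arrays in all. In all 4 pairs 69 of the 108 were lower, which is 63.9%, and 0 were higher. Over all 9275 probe sets 12.4% were lower and 11.9% were higher in all 4. The number lower in all 4 pairs was 23 of 30 for Ty1, 16 of 28 for Ty1 and Ty2, 10 of 11 for Ty2, 3 of 8 for Ty3 and 17 of 31 for Ty4, and 16 of the 102 other shared probe sets. Lower strain means in both NOT1 states were seen for 86 of the 108, against 28.4% of all probe sets. The size in spt3 against wild type rests in part on 1 array: over the 93 probe sets kept, the median was -0.55 with all arrays and -0.31 without wild-type replicate 1. In not1-2 spt3 against not1-2 it was -0.87 with all arrays and -0.55 without not1-2 spt3 replicate 2. The difference between the 2 NOT1 states is the interaction given further on.

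Tests of single probe sets were limited by the spread between replicates. In limma without the replicate number, 0 of the 176 shared probe sets that passed the filter were called at an adjusted p of 0.05 in the SPT3 comparison, where 0.04% of all 7509 were called lower and 0.0133% higher. At an unadjusted p under 0.05, 27 of the 176 were lower and 0 higher, against 10.2% of all 7509 in either direction. Arrays of the same number deviated together in every pair of strains, so the replicate number was also fitted as a block. With the block, 19 retrotransposon probe sets fell and 0 rose, where 4.65% of all 7509 were called lower and 0.693% higher. They were 7 of Ty1, 3 of Ty1 and Ty2, 7 of Ty2 and 2 of Ty4, in 12 gene sets, and all 19 were lower in all 4 pairs of arrays. Of the 19, 4 had passed the filter through the SPT3 strains alone, so that a difference was built into their selection, and 15 had passed it through an spt3 strain as well. That count moved with single arrays: leaving out replicate 1 or 2 gave 6 and 5 for not1-2 spt3, 10 and 41 for spt3, 1 and 0 for not1-2, and 0 and 16 for wild type. With the log2 ACT1 ratio beside the block it was 0, where 0.0666% of all probe sets were called lower. Under that fit the median over the 93 was -0.69.

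Without any fit or filter, the arrays of both spt3 strains all lay under those of both SPT3 strains for 18 of the 108 retrotransposon probe sets. Over all probe sets this held for 279 of 9275. They all lay above for 0 of the 108, against 256 of 9275.

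Ty2 had the lowest family median, -1.29, with 10 of 11 probe sets lower, and 7 of its 10 tested probe sets fell with the block. Among these 7, 3762_s_at had passed the filter through the SPT3 strains alone. Probe set 3669_f_at, which names the short and long genes of 2 Ty2 elements (YDR034C-C, YDR034C-D, YOR192C-A and YOR192C-B), gave 159.8 and 51.6 in not1-2 spt3 and 131 and 44.3 in spt3, against 518 and 197 in not1-2 and 694 and 127 in wild type. Each spt3 strain lay under each SPT3 strain within a replicate number, while replicate 1 was the brighter array in all 4 strains. Its difference was -1.89 ± 0.24 (blocked SE, 4 against 4 arrays), with a limma adjusted p of 0.00799 with the block and 0.45 without. In not1-2 spt3 against not1-2 alone it fell by 1.82 on the log2 scale (limma, adjusted p = 0.0448 with the block and 0.0619 with the ACT1 ratio beside it), 1 of 3 shared probe sets called there with the block, where 1.28% of all were called lower and 0.173% higher. Another of the 3, 3712_s_at, had passed the filter through the SPT3 strains alone, so that a difference was built into its selection. Without the block 0 shared probe sets were called in that comparison and 16 were lower at an unadjusted p under 0.05, against 7.18% of all. The Ty2 probe set 3722_s_at, which names 10 genes, gave 97.7 and 609 in not1-2 spt3 and 83.4 and 536 in spt3, against 325 and 1210 in not1-2 and 279 and 1008 in wild type. Its replicates differed several-fold, replicate 2 being the brighter, and its difference was -1.34 ± 0.22 (blocked SE, limma adjusted p = 0.0134). Only 2520_at among the Ty2 probe sets was not lower. It had not passed the filter and differed by 0.13.

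Among Ty1 probe sets the 2 with the lowest differences were dim. Probe set 3712_s_at, naming short and long genes of Ty1 (YBL005W-A, YBL005W-B, YDR170W-A, YMR045C and YMR046C), gave 6.11 and 1.72 in not1-2 spt3 and 6.94 and 3.89 in spt3, against 22.4 and 53.5 in not1-2 and 27.1 and 18.9 in wild type. The groups did not overlap. The difference was -2.77, a lower bound in size since 1 array was at the floor. This probe set had passed the filter through the SPT3 strains alone, so its difference is a description; it was -3.42 in not1-2 spt3 against not1-2 and -2.12 in spt3 against wild type.

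The second, 8118_i_at, names 6 Ty1 genes together with YER138W-A, YOR192C-C and TYW1, which encodes a tRNA-modifying enzyme. It gave 4.67 and 1.72 in not1-2 spt3 and 3.48 and 1.86 in spt3, against 14.1 and 15.4 in not1-2 and 22.6 and 13.4 in wild type, a difference of -2.58. It too had 1 array at the floor and had passed the filter through the SPT3 strains alone, so the value is a lower bound in size and a description. A probe set that names TYW1 alone did not share that direction: it gave 121 and 142 in not1-2 spt3 and 201 and 133 in spt3, against 62.8 and 91.1 in not1-2 and 121 and 132 in wild type, a difference of 0.58 (limma, blocked adjusted p = 0.195).

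The single Ty1 probe set that was not lower, 2459_at, names PDR3, a regulator of drug resistance genes, beside 6 Ty1 genes. It gave 146 and 46.1 in not1-2 spt3 and 60.2 and 84.0 in spt3, against 104 and 42.4 in not1-2 and 116 and 52.0 in wild type, a difference of 0.08 with overlapping groups. PDR3 alone, on another probe set, differed by 0.65 (limma, blocked adjusted p = 0.228).

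The 12 retrotransposon probe sets with the highest mean signal differed by -0.57 to -0.13, and 0 of them passed in limma without or with the block. The highest, 3835_s_at, names 16 genes, of which YLR035C-A could not be placed between Ty1 and Ty2 and the other 15 are of Ty1, and gave 3474 and 1891 in not1-2 spt3 and 3242 and 1735 in spt3, against 4257 and 2045 in not1-2 and 4907 and 2455 in wild type. Within each replicate number both spt3 strains were the lower, by 0.45 and 0.31 on the log2 scale, and the blocked adjusted p in limma was 0.0770.

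A group of 4 probe sets names the same 18 Ty1 genes. 3703_f_at gave 1144 and 1205 in not1-2 spt3, 1260 and 1254 in spt3, 1333 and 1364 in not1-2 and 1189 and 1428 in wild type. 3774_f_at gave 976 and 1076 in not1-2 spt3, 1152 and 1131 in spt3, 1350 and 1289 in not1-2 and 1112 and 1238 in wild type. In both, not1-2 had the highest strain mean. 3587_f_at gave 1085 and 797 in not1-2 spt3, 1171 and 973 in spt3, 1289 and 1137 in not1-2 and 1195 and 1180 in wild type. 3636_f_at gave 796 and 745 in not1-2 spt3, 947 and 790.1 in spt3, 992 and 1045 in not1-2 and 881 and 939 in wild type. The differences of these 4 ran from -0.27 to -0.13. Another bright Ty1 probe set, 3920_f_at with 8 genes, gave 789 and 889 in not1-2 spt3, 908 and 983 in spt3, 1071 and 1134 in not1-2 and 723 and 1170 in wild type, a difference of -0.18 with overlapping groups.

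The other 6 name genes of Ty1 and Ty2 together. 3430_f_at gave 1370 and 869 in not1-2 spt3, 1285 and 1048 in spt3, 1681 and 1281 in not1-2 and 1483 and 1114 in wild type. 3723_f_at, with the same 12 genes, gave 1151 and 609 in not1-2 spt3, 1126 and 1020 in spt3, 1442 and 1178 in not1-2 and 1107 and 1036 in wild type. Here too the highest strain mean was that of not1-2. 3393_f_at gave 999.7 and 1259 in not1-2 spt3, 955 and 1339 in spt3, 1187 and 1941 in not1-2 and 791 and 1710 in wild type. 3409_f_at gave 771 and 662 in not1-2 spt3, 843 and 747 in spt3, 1032 and 1004 in not1-2 and 618 and 825 in wild type. 3720_f_at, with the same 18 genes as 3393_f_at and 3409_f_at, gave 826 and 452 in not1-2 spt3, 886 and 527 in spt3, 1066 and 793 in not1-2 and 849.6 and 630.2 in wild type. Wild-type replicate 1 lay under all arrays of the spt3 strains in the first and second of these 3. 3237_f_at, with 7 genes, gave 777 and 447 in not1-2 spt3, 754 and 440.4 in spt3, 1131 and 744 in not1-2 and 942 and 711 in wild type, and its difference of -0.57 was the lowest of the 12 (limma, blocked adjusted p = 0.0786).

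Size of difference and mean signal varied together across the 108 probe sets. The median difference was -0.38 for the 27 with a mean signal of 500 or more, all of them lower, and -0.73 for the 29 between 100 and 500, all of them lower. It was -0.97 for the 29 between 10 and 100, of which 27 were lower, and -0.52 for the 23 under 10, where many values sat at the floor. Over all 9275 probe sets the medians in the same 4 ranges were 0.01, 0.10, 0.05 and -0.17. Probe sets share genes and arrays, so this is a description and the ranges are not independent samples.

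For Ty4, 26 of 31 probe sets were lower and 2 higher, with a median of -0.70, and 2 of the 22 tested fell with the block. One of these, 3196_f_at (YHL009W-A, YHL009W-B and YJL114W), gave 51.1 and 20.5 in not1-2 spt3 and 51.8 and 35.5 in spt3, against 138 and 58.8 in not1-2 and 88.6 and 46.2 in wild type. Its difference was -1.03 ± 0.22 (blocked SE, limma adjusted p = 0.0334). Of the Ty3 probe sets all 8 were lower, with a median of -0.87, but only 4 passed the filter and 0 passed the test; 1 of them was lower at an unadjusted p under 0.05 without the block. Ty3 is known to be induced by mating pheromone. In not1-2 against wild type a pair of its probe sets, chosen after their values were seen, lay on opposite sides: 3136_s_at gave 6.74 and 103 in not1-2 against 3.74 and 18.7 in wild type, and 11428_at gave 17.8 and 13.1 in not1-2 against 35.1 and 51.6 in wild type, neither passing the test.

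Probe sets that name a single retrotransposon gene were outside the 210 and were read beside them. There were 35 for 10 genes, and 32 carried the suffix _f_at. Of these 35, 34 had a lower mean over both spt3 strains than over both SPT3 strains, with a median difference of -0.89. With the block 10 of the 34 tested fell, where 4.65% of all were called lower. The Ty1 probe set of YHR214C-B had the lowest, with 209 and 283 in not1-2 spt3 and 230.2 and 242 in spt3, against 662 and 1250 in not1-2 and 319 and 827 in wild type (-1.51 ± 0.24, blocked SE, limma adjusted p = 0.0119). No array of the spt3 strains reached any of the SPT3 strains. The Ty3 gene YGR109W-B is named alone by 23 of the 35, of which 20 have the suffix _f_at. Of the 23, 22 were lower, with a median of -0.96. Their mean signals had a median of 175. The 8 shared Ty3 probe sets had a median of 4.17 and a highest value of 23.1. Whether the 23 read the RNA of this Ty3 gene only was not tested.

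The NOT1 mutation was compared with wild type while SPT3 was present. These strains also differed in mating-type genes, which cannot be told apart from the NOT1 mutation here. On replicate 1 their ACT1 ratios were 36.8 in not1-2 and 199.1 in wild type. Of the 108 retrotransposon probe sets, 87 lay above wild type in not1-2 and 18 below, with a median of 0.22 against -0.10 over all probe sets. Of all 9275, 3798 lay above and 5232 below. In both replicate pairs 66 of the 108 were higher, against 2226 of all 9275. Of the 93 tested, 0 passed in limma without the block or with it, where 0.706% of all 7509 were called higher and 0.639% lower with the block, and 0 were higher and 1 lower at an unadjusted p under 0.05, against 7.32% of all 7509. Without SPT3, not1-2 spt3 differed from spt3 by 0.00 in the median over the 108, with 50 higher and 53 lower. This median was 0.09 within the replicate 1 arrays and -0.20 within the replicate 2 arrays. By family it was -0.14 for Ty1 and Ty2 together, with 22 of 28 lower, and 0.21 for Ty2, with 9 of 11 higher. For Ty1 it was -0.04, for Ty3 -0.05 and for Ty4 0.05. In this comparison 0 shared probe sets passed in limma without or with the block, with 1 higher and 0 lower at an unadjusted p under 0.05, against 0.146% of all. The interaction of not1-2 and spt3 had a median of -0.25 over the 108 and 0.09 over all. Over the 108 it was 0 within the replicate 1 arrays and -0.51 within the replicate 2 arrays. By family the interaction median was -0.48 for Ty1 and Ty2 together, -0.21 for Ty1, -0.25 for Ty3, -0.07 for Ty4 and -0.03 for Ty2. For the interaction 0 shared probe sets passed, with 3 higher and 3 lower at an unadjusted p under 0.05, against 3.4% of all. In not1-2 spt3 against wild type, which shares its arrays with comparisons above, 98 of the 108 were lower, with a median of -0.58, and 0 shared probe sets passed with the block, where 0.16% of all were called lower. At an unadjusted p under 0.05 without the block, 5 were lower and 0 higher, against 4.23% of all. In spt3 against wild type 0 passed with the block, where 0.24% of all were called lower and 0.0533% higher, and 11 were lower and 1 higher at an unadjusted p under 0.05 without it, against 5.38% of all.

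Regulators of Ty1 were read on their own probe sets. Of 18 genes listed as Ty1 transcription factors, with 24 probe sets and 18 of them tested, SPT3 was called lower and TYE7 higher in the comparison of both spt3 strains with both SPT3 strains with the block. TYE7 had passed the filter through the spt3 strains alone. TYE7, a helix-loop-helix activator of glycolytic genes that also acts on Ty1, gave 7.82 and 11.4 in not1-2 spt3 and 11.6 and 19.2 in spt3, against 1.72 and 11.2 in not1-2 and 1.72 and 4.21 in wild type, a difference of 1.79, with not1-2 replicate 2 inside the range of the double mutant. Within a NOT1 state it did not pass (limma, blocked adjusted p = 0.113 in spt3 against wild type and 0.377 in not1-2 spt3 against not1-2). The list median was 0.33, against -0.01 over all probe sets. Of 21 genes listed as acting on Ty1 after or beside its transcription, with 22 probe sets tested, 0 passed in limma without or with the block, and their median was 0.10.

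The 102 other shared probe sets named 2 genes in 76 cases. Each was placed in a single class by the relation of its genes: 75 named copied genes, 7 at least 1 gene next to a retrotransposon gene, 6 a mitochondrial gene and its intron-encoded genes, 6 overlapping genes, 4 adjacent genes and 4 genes with no such relation. A gene next to a retrotransposon gene was also named by 10186_s_at and 11307_s_at, placed with the copied genes, and by 5419_at, placed with the last class. Of these 102, 83 passed the filter. In the SPT3 comparison 61 were lower and 41 higher, with a median of -0.09. With the block 1 of the 83 tested was called lower and 0 higher, under the 4.65% and 0.693% of all 7509.

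That 1 was 3302_f_at, which names YER138W-A and YOR192C-C, at least 1 of which lies next to a retrotransposon gene. Both genes are also named, beside 6 Ty1 genes, by 8118_i_at and 8119_f_at, which are counted here as Ty1. Whether 3302_f_at reads Ty1 RNA was not tested. Probe set 3302_f_at gave 125 and 71.4 in not1-2 spt3 and 129 and 64.8 in spt3, against 259 and 156 in not1-2 and 289.7 and 97.3 in wild type. The difference was -0.98 ± 0.23 (blocked SE, limma adjusted p = 0.0445 with the block and 0.347 with the ACT1 ratio beside it). Within each replicate number both spt3 strains were the lower. The other 6 probe sets of that class ran from -1.13 to 0.84, with 3 lower and 3 higher.

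Among copied genes the calls lay in comparisons that involve the not1-2 single mutant. In not1-2 against wild type 1 shared probe set rose and 1 fell with the block, against the same 0.706% and 0.639% of all. Without the block 0 passed in limma, where 0.0133% of all were called higher and 0.0266% lower, and at an unadjusted p under 0.05 there were 4 shared probe sets higher, all of copied genes, and 4 lower, none of copied genes, against 7.32% of all in either direction.

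The probe set of DDI2 and DDI3, identical genes for an enzyme that breaks down cyanamide and is induced by DNA damage, rose. It gave 58.0 and 36.3 in not1-2 against 3.52 and 5.77 in wild type, with 4.38 and 9.26 in not1-2 spt3 and 14.5 and 4.82 in spt3. Both not1-2 arrays lay above all 6 others. The difference from wild type was 3.35 ± 0.62 (blocked SE, 2 against 2 arrays, limma adjusted p = 0.0457 with the block, 0.282 without and 0.0906 with the ACT1 ratio beside the block). Set against not1-2, the double mutant differed by -2.85, just outside the threshold (limma, blocked adjusted p = 0.0599).

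The probe set of CSS1 and HPF1, which encode cell wall glycoproteins, gave 13.7 and 84.0 in not1-2 spt3 and 47.8 and 49.99 in spt3, against 144 and 777 in not1-2 and 16.0 and 115 in wild type. It fell by 3.31 ± 0.61 on the log2 scale in not1-2 spt3 against not1-2 (blocked SE, limma adjusted p = 0.0418 with the block, 0.625 without and 0.0353 with the ACT1 ratio beside the block), where 1.28% of all were called lower. In not1-2 against wild type it differed by 2.96 (limma, blocked adjusted p = 0.0568). A probe set naming HPF1 alone went the same way, with 42.6 and 81.5 in not1-2 spt3 and 109.6 and 60.2 in spt3, against 707 and 869.6 in not1-2 and 69.7 and 111 in wild type. It fell by 3.73 ± 0.43 (blocked SE, limma adjusted p = 0.0109) in not1-2 spt3 against not1-2, and no not1-2 array overlapped the others. The interaction was -3.49 ± 0.86 for CSS1 and HPF1 and -3.74 ± 0.88 for DDI2 and DDI3, at blocked adjusted p of 0.238 and 0.216 in limma.

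SSA1 and SSA2 encode the main cytosolic Hsp70 chaperones. Their probe set 11315_i_at fell in not1-2, to 9264 and 3892 against 13477 and 6051 in wild type, with 13187 and 5337 in not1-2 spt3 and 11538 and 5376 in spt3. The difference was -0.59 ± 0.11 (blocked SE, limma adjusted p = 0.0458 with the block, 0.931 without and 0.0465 with the ACT1 ratio beside the block). Without not1-2 replicate 2 and without the block it was 0.037. Their second shared probe set, 11317_s_at, also differed by -0.59, with 757 and 513 in not1-2 against 867 and 1021 in wild type, and did not pass. Probe sets naming SSA1 alone and SSA2 alone fell by 0.72 and 1.37 on the log2 scale in not1-2 (limma, blocked adjusted p = 0.0286 and 0.0306).

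Other copied genes did not pass. CUP1-1 and CUP1-2, tandem copies for the copper metallothionein, gave 1794 and 811 in not1-2 against 3051 and 1963 in wild type, with 2869 and 1550 in not1-2 spt3 and 2409 and 1790 in spt3 (limma, blocked adjusted p = 0.0568 for not1-2 against wild type). Probe set 3114_s_at names VTH1, VTH2 and YNR065C, relatives of the vacuolar sorting receptor gene PEP1. It gave 24.7 and 43.2 in not1-2 spt3 and 22.5 and 28.0 in spt3, against 52.8 and 109 in not1-2 and 27.4 and 47.5 in wild type. Its difference in the SPT3 comparison was -0.87 (limma, blocked adjusted p = 0.0546). With the same genes, 3113_s_at gave 8.81 and 8.43 in not1-2 spt3 and 6.35 and 6.17 in spt3, against 3.49 and 21.9 in not1-2 and 7.19 and 13.2 in wild type, with overlapping groups. A further probe set of these genes, 11415_f_at, did not pass the filter. YNR065C alone gave 152 and 65.6 in not1-2 spt3 and 149 and 73.9 in spt3, against 1390 and 416 in not1-2 and 368 and 87.2 in wild type. It fell by 1.85 in the SPT3 comparison (limma, blocked adjusted p = 0.00799). Both not1-2 arrays were the highest, and the groups overlapped: wild-type replicate 2 lay under the replicate 1 arrays of both spt3 strains.

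The 10 other shared probe sets with the highest mean signal included, beside SSA1/SSA2 and CUP1-1/CUP1-2, 8 of glycolysis, translation, lysine synthesis and protein folding. TDH2 and TDH3, glyceraldehyde-3-phosphate dehydrogenase genes, gave 5563 and 2398 in not1-2 against 8218 and 2752 in wild type, with 5609 and 2536 in not1-2 spt3 and 5246 and 2764 in spt3. The probe set that adds TDH1 gave 4711 and 2231 in not1-2 against 6049 and 2352 in wild type, with 4579 and 2267 in not1-2 spt3 and 4542 and 2327 in spt3. The enolase genes ENO1 and ENO2 gave 5205 and 2396 in not1-2 against 6038 and 3165 in wild type, with 5259 and 2889 in not1-2 spt3 and 4902 and 2708 in spt3. In all 3 the replicate 1 array was the brighter in each strain, by more than any strains differed within a replicate number.

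TEF1 and TEF2, for the elongation factor that brings tRNA to the ribosome, gave 3741 and 1954 in not1-2 against 5609 and 2184 in wild type, with 3945 and 2141 in not1-2 spt3 and 4042 and 2401 in spt3. SSB1 and SSB2, for ribosome-bound chaperones, gave 1903 and 1398 in not1-2 against 3030 and 1869 in wild type, with 2253 and 1475 in not1-2 spt3 and 2465 and 1569 in spt3. TIF1 and TIF2, for the initiation helicase eIF4A, gave 1000.4 and 908 in not1-2 against 1457 and 1361 in wild type, with 1537 and 984 in not1-2 spt3 and 1530 and 1166 in spt3. With EFT1/EFT2, for the translocation factor, the differences of these 4 from wild type in not1-2 ran from -0.56 to -0.37, and 0 of 4 passed in limma without or with the block; under quantile normalization they ran from -0.31 to 0.10, TEF1/TEF2 being the one above 0.

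LYS20 and LYS21, for homocitrate synthase, gave 1343 and 1922 in not1-2 against 899 and 1566 in wild type, with 1789 and 1587 in not1-2 spt3 and 2641 and 1477 in spt3. HSC82 and HSP82, for the Hsp90 chaperones, gave 1172 and 828 in not1-2 against 876 and 1463 in wild type, with 1773 and 1355 in not1-2 spt3 and 1651 and 1461 in spt3. In both, the replicates of wild type lay further apart than the means of not1-2 and wild type.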

How the data were processed

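RNA of 4 strains was hybridised to 8 Affymetrix yeast arrays; per the labels it was polyA RNA, extracted with acid phenol and labelled with biotin by the standard procedure. The authors deposited a linear signal intensity for every probe set on every array; no source used here names the software. After 2% was trimmed at each end, array means lay between 100.084 and 100.123, so the arrays had already been brought to a common level. Arrays have no read depth; 2 per strain limit the precision.

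Medians still spread over 0.419 in log2, so each array was scaled to a common median. Signals under 1.72 were set to it, log2 was taken, and a probe set was tested if a strain mean exceeded 6.99, the 25th percentile: 7509 of 9275, among them 176 of the 210. Probe sets of a gene were not merged. Comparisons were fitted in limma 3.58.1 (R 4.3.3) with strain means from all 8 arrays, an intensity trend, 7 contrasts and Benjamini-Hochberg adjustment over 7509 at 0.05. The replicate number as a block was the alternative. No label says what a shared number stands for; deviations of same-numbered arrays correlated in all 6 strain pairs (r from 0.272 to 0.752), so same-numbered arrays were treated as pairs and the blocked value is given where it changed a call. The fit was run on simulated data with an additive replicate effect and normal noise. This checked the estimates of a difference that was put in, not the calls in these data.

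Genes were matched by identifier to assembly R64 (237 of 237). Retrotransposon genes were recognised from a list written from textbook knowledge and checked against gene layout. Copied and other genes were classed by hand, because protein sequences for an identity threshold were not used here. Members, gene lists and tests were chosen with earlier results of these data known. Named were the 12 brightest tested retrotransposon probe sets, the 10 brightest others, up to 6 highest and 6 lowest passing per contrast and single-gene probe sets beside them. Other probe sets named, among them most families' examples, were chosen after their values were seen.

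Alternatives were the scaling, floor, filter, trend, arrays in the fit, 1 probe set per set of named genes, the ACT1 ratio and each array left out; those combined with the block were chosen after seeing the data.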

Additional observations from a re-analysis of the deposited data

How the results depend on the processing

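Same-numbered arrays were treated as pairs, though no label states a pairing, and calls depended on the replicate block. The replicate number also coincided with the ACT1 ratio, so they cannot be told apart. Without the block, shared probe sets called numbered 0 in every comparison. With it they were 2 in not1-2 against wild type, 3 in not1-2 spt3 against not1-2 and 20 in both spt3 strains against both SPT3 strains, and with the ACT1 ratio beside it 1, 1 and 0. Of the 3, 3712_s_at had passed the filter through the SPT3 strains alone, as had 4 of the 19 retrotransposon probe sets among the 20. Of 46 named results 25 passed with the block, 2 with block and ACT1 ratio and 0 under the alternatives run without the block. Passing with the block was itself a ground for naming, so the 25 follows from the choice and is no test of it. The 19 retrotransposon calls of the SPT3 comparison became 0 without the block, 0 with the ACT1 ratio, 8 with the floor at the 25th percentile, 0 with no filter, 12 with no intensity trend and 11 with 1 probe set per set of named genes, and 0 to 41 with an array left out (6 and 5 leaving out replicate 1 or 2 of not1-2 spt3, 10 and 41 of spt3, 1 and 0 of not1-2, and 0 and 16 of wild type). The cause was not tested.

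The median retrotransposon difference in that comparison, -0.71, was -0.69 with block and ACT1 ratio, -0.64 with no centring, -0.61 with quantile normalization, -0.66 with the floor at the 25th percentile, -0.68 with no filter and -0.69 with 1 probe set per set of named genes. With an array left out it lay between -0.84 and -0.58, that of spt3 against wild type between -0.59 and -0.31, and that of not1-2 spt3 against not1-2 between -1.04 and -0.55. None of these 3 retrotransposon medians reversed under the alternatives run. Near 0, signs changed with no centring: the other shared probe sets in not1-2 spt3 against not1-2 had a median of 0.0081 in place of -0.013, and the retrotransposon probe sets in not1-2 spt3 against spt3 had 56 higher and 48 lower in place of 50 and 53.

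Bright probe sets with small differences reversed. Quantile normalization put not1-2 against wild type at 0.11 for TDH2/TDH3, 0.16 for ENO1/ENO2, 0.32 for TDH1/TDH2/TDH3, 0.10 for TEF1/TEF2 and 0.016 for HSC82/HSP82. With an array left out the ranges were -1.17 to 0.41 for TDH2/TDH3, -0.87 to 0.25 for ENO1/ENO2, -0.90 to 0.46 for TDH1/TDH2/TDH3, -1.05 to 0.31 for TEF1/TEF2, -0.57 to 0.17 for HSC82/HSP82 and -1.21 to 0.037 for SSA1/SSA2, and -0.52 to 0.039 for 3393_f_at in the SPT3 comparison. Using only the arrays compared was not run for the SPT3 comparison and the interaction, which use all 8. Probe sets at the floor, and 2 arrays per strain, limit what could be detected.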

Other observations

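Among copied genes of sugar use, 5 of 6 probe sets had a lower mean over both spt3 strains than over both SPT3 strains. The median difference was -0.86 on the log2 scale, -1.19 within the replicate 1 arrays and -0.27 within the replicate 2 arrays. With the block 0 of the 6 passed in limma, where 4.65% of all 7509 were called lower. Without it 3 were lower at an unadjusted p under 0.05, against 10.2% of all in either direction. The maltose transporter copies MPH2 and MPH3 gave 6.12 and 6.65 in not1-2 spt3 and 8.85 and 9.72 in spt3, against 21.3 and 25.6 in not1-2 and 17.5 and 7.21 in wild type.

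The 6 probe sets that pair the mitochondrial genes COX1 or COB with their intron-encoded genes had a median of -1.71 in not1-2 against wild type. It was -3.18 within the replicate 1 arrays and -0.13 within the replicate 2 arrays. Against wild type the median was also -0.92 in spt3 (-1.33 and -0.49 by replicate) and -0.81 in not1-2 spt3 (-1.80 and -0.14). In each mutant 5 of the 6 were lower. In not1-2 against wild type 0 of the 6 passed in limma without or with the block. Without it 3 were lower at an unadjusted p under 0.05, against 7.32% of all in either direction. The probe set of AI4, AI5_ALPHA and COX1 gave 5.29 and 18.4 in not1-2 against 98.3 and 28.7 in wild type. On replicate 1 the ACT1 3' to 5' ratio was 36.8 in not1-2 and 199.1 in wild type, and its part in this difference was not tested.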
